A study of Homo sapiens with 6 samples.

Results

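Broad stretches of histone H3 carrying a single methyl group on lysine 4 (H3K4me1) were examined at places where no equally broad stretch of dimethylated lysine 4 (H3K4me2) was called. The members were the distinct H3K4me1 intervals of 4000 bp or more in cells given DMSO that overlapped no H3K4me2 interval of 4000 bp or more. They numbered 1073 of the 94689 H3K4me1 intervals, or 1.13%, and are called domains here. The cells were NCI-H526, which is an established line from a human small cell lung cancer, and the peak lists came from chromatin immunoprecipitation followed by sequencing (ChIP-seq). The first group was LSD1 in cells given GSK552, which the treatment protocol names as GSK2879552 at 1 µM for 24 hours and which inhibits LSD1. The labels repeat that protocol for all samples, and it is taken here to describe the GSK552 libraries alone. The other groups were LSD1, H3K4me2 and H3K4me1 in cells given DMSO, the vehicle. Of the 6 samples, 2 were inputs, which this account leaves aside, and the histone marks after GSK552 were not analysed here. Every group was 1 library of 1 cell line, so no difference between conditions has a replicate check and none carries a p-value. Positions are on hg19. The reference tables at hand are on another build, so neither gene names nor sequences are given for these positions.

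LSD1 (KDM1A) is a demethylase that takes methyl groups off H3K4me2 and H3K4me1, usually as part of corepressor complexes that also hold histone deacetylases. H3K4me1 is laid down largely by the methyltransferases MLL3 and MLL4 and is the common mark of enhancers, active or poised, and of the flanks of active promoters. H3K4me2 is found at enhancers and promoters alike and tends to gather close to the sites where transcription factors bind. Long runs of H3K4me1 are known from clusters of enhancers and from enhancers within gene bodies. Large enhancer clusters are usually defined by histone acetylation or coactivators, and neither was measured in these samples.

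Width and H3K4me2 chose the domains, so their values for these marks are a description. The domains covered 5.90 Mb, which was 8.71% of all sequence under H3K4me1. Their median width was 4958 bp, with quartiles of 4423 and 6016 bp and a maximum of 21095 bp, and 26 of them were at least 10 kb wide. They made up 87.2% of the 1230 H3K4me1 intervals of 4000 bp or more. The other 157 lay on broad H3K4me2, with a median width of 5645 bp. Just inside the threshold stood domains of 4001, 4001 and 4003 bp, and just outside it an interval at chr11:12769652-12773650 and then intervals of 3997 and 3995 bp. Those inside had fold enrichments of 12.6, 11.0 and 17.7, and those outside 16.3, 16.2 and 11.2. Values on the 2 sides of the threshold therefore overlapped.

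The fold enrichment rose with the width. It is the authors' own ratio of a peak over the caller's background, and the highest over an interval's summits was used. It had a median of 13.5 in the domains and ranged from 3.79 to 28.2. The median was 14.6 in the broad intervals on broad H3K4me2, 9.82 in H3K4me1 intervals of 2000 bp to under 4000 bp and 4.98 in those under 2000 bp. Wider intervals had more summits to take the highest from, with medians of 13, 6 and 1 in the domains and the narrower sets. Part of the rise was therefore built in, and its size was not tested. A domain held a median of 13 summits, and the spacing was 387 bp per summit. In the narrower sets it was 409 and 382 bp per summit, so wide domains held more summits rather than wider ones.

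The name "without broad H3K4me2" does not mean without H3K4me2. H3K4me2 lay in 1069 of the 1073 domains (99.6%) and took up 52.3% of their bases. This was much like the H3K4me1 intervals of 2000 bp to under 4000 bp, at 96.0% of intervals and 50.9% of bases. Of all H3K4me1 intervals, 47.4% held H3K4me2, but 93.7% of them were under 2000 bp wide. In the domains H3K4me2 filled only part of the length. It came in pieces: a domain had a median of 4 H3K4me2 intervals and at most 20, and 342 domains had 5 or more. The 4077 H3K4me2 intervals at domains had a median width of 456 bp, with quartiles of 249 and 1057 bp. In the broad H3K4me1 intervals on broad H3K4me2 the mark covered 79.2% of bases with a median of 2 intervals. H3K4me2 cover within single domains had quartiles of 38.9 and 65.3%, with 96 domains under 25% and 10 above 90%.

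Part of this splitting came from short gaps between H3K4me2 intervals. If H3K4me2 intervals were first joined over gaps of up to 100 bp, 52 of the domains would have overlapped broad H3K4me2, and with gaps of up to 200 bp 151 would have (14.1%). With gaps of up to 1000 bp the number was 474, and 599 domains (55.8%) were still without broad H3K4me2. The median distance from a domain to the nearest broad H3K4me2 interval was 608 kb, and 64 domains lay within 12.5 kb of one. Only 527 broad H3K4me2 intervals were called in all, and the distance was not worked out for other H3K4me1 intervals.

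Only 4 domains had no H3K4me2 interval at all, and each held at most 2 LSD1 peaks in either library. The widest, at chr2:8684279-8689758 (5480 bp, fold 8.07), held 2 LSD1 peaks with GSK552 and 2 with DMSO. The domain at chr12:124876544-124881384 (4841 bp, fold 8.31) held 1 and 1. At chr11:119553733-119558313 (4581 bp, fold 7.64) there was 1 LSD1 peak with GSK552 and 0 with DMSO, and at chr10:72990961-72995468 (4508 bp, fold 9.98) there was none in either library. Their H3K4me1 folds were all below the median of the domains.

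LSD1 was not used to choose the domains, and most domains carried it. An LSD1 peak overlapped 923 of 1073 domains with GSK552 (86.0%, 95% Wilson interval 83.8 to 88.0%), against 23.8% of all H3K4me1 intervals. With DMSO it overlapped 875 domains (81.5%, 79.1 to 83.8%), against 23.7% of all. These intervals cover counting error only. LSD1 was present in both libraries at 816 domains (76.0%, against 15.9% of all H3K4me1 intervals) and in neither at 91 (8.48%, against 68.5%). It was present with GSK552 alone at 107 (9.97%, against 7.85%) and with DMSO alone at 59 (5.50%, against 7.74%). In H3K4me1 intervals of 2000 bp to under 4000 bp the shares with GSK552 alone and DMSO alone were 13.4 and 9.36%. In the broad intervals on broad H3K4me2 they were 7.01 and 3.82%.

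A wide interval is overlapped by more peaks simply through its length, so LSD1 was also counted per length. Overlaps of domains with LSD1 peaks numbered 1554 with GSK552 and 1364 with DMSO. Per 100 kb of domain this was 26.3 LSD1 peaks with GSK552 (exact Poisson interval 25.04 to 27.7) and 23.1 with DMSO (21.9 to 24.4). In H3K4me1 intervals under 2000 bp, where an interval with LSD1 seldom holds more than 1 peak and peaks also reach past its edges, the number per 100 kb was 38.5 for both libraries. The share of bases under LSD1, which leaves out the parts of peaks past an edge, ran the other way. LSD1 covered 19.0% of domain bases with GSK552 and 18.7% with DMSO, against 10.9 and 12.1% in intervals under 2000 bp. Cover also fell towards the edges of domains, as given below, and the part of edges in this difference was not tested.

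**Figure D1:**
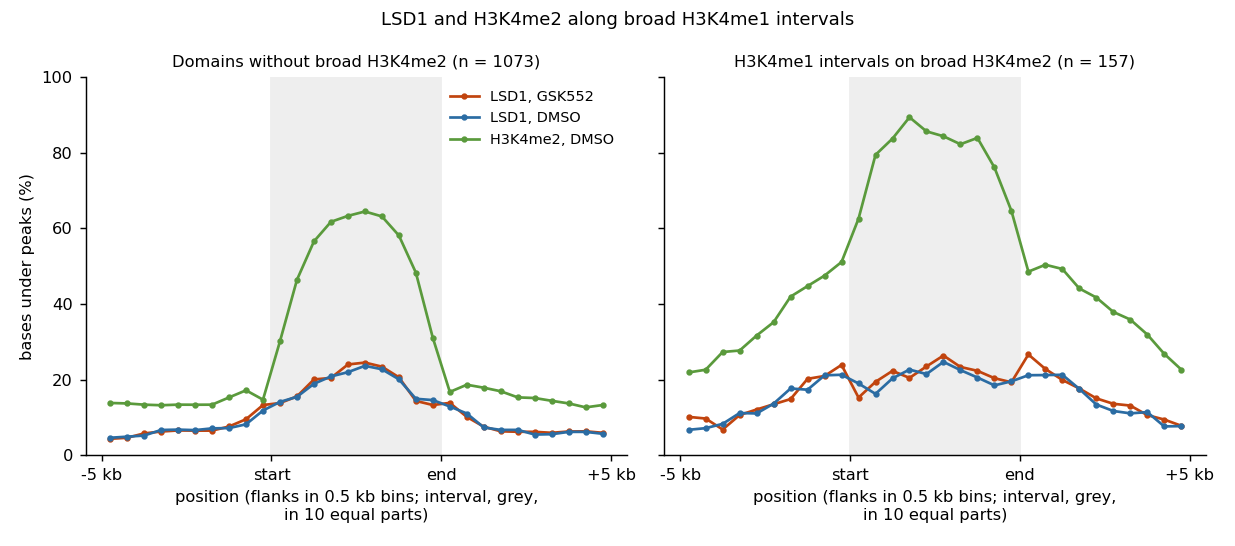
Percentage of bases under LSD1 with GSK552, LSD1 with DMSO and H3K4me2 with DMSO (vertical axis) along the domains and along broad H3K4me1 intervals on broad H3K4me2, with each interval cut into 10 equal parts and flanks of 5 kb on either side (horizontal axis). In the domains LSD1 cover is highest in the middle, at 24.3% with GSK552 and 22.8% with DMSO in the central parts, and H3K4me2 cover peaks there as well.

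LSD1 cover was higher in the middle of the domains than at their edges. When each domain was cut into 10 equal parts, LSD1 covered 24.3% of bases in the 2 central parts with GSK552 and 22.8% with DMSO. In the 2 outermost parts it covered 13.6 and 14.4%, and over the flanks of 5 kb on either side a mean of 7.30 and 7.16%. H3K4me2 followed the same shape, with 63.9% in the central parts, 30.6% in the outermost and 14.8% in the flanks. The broad intervals on broad H3K4me2 had a central rise as well. From the outermost to the central parts, LSD1 cover went from 17.3 to 24.9% with GSK552 and from 19.3 to 23.1% with DMSO. Just outside these intervals LSD1 cover was about as high as in their middle. When each flank was also cut into 10 parts, cover in the part before the start was 23.9% with GSK552 and 21.3% with DMSO. In the part after the end it was 26.7 and 21.2%. Over the whole flanks of these intervals LSD1 covered 14.98% with GSK552 and 13.99% with DMSO, and H3K4me2 37.1%. No interval was computed for these covers, since neighbouring bases are not independent.

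LSD1 sat on the H3K4me2 pieces more than on the H3K4me2-free parts of the domains. H3K4me2 pieces made up 3089 kb of the domains and free parts 2814 kb. Centres of LSD1 peaks numbered 1008 on the pieces and 377 on the free parts with GSK552, or 32.6 (30.7 to 34.7) and 13.4 (12.1 to 14.8) per 100 kb. With DMSO they numbered 902 and 317, or 29.2 (27.3 to 31.2) and 11.3 (10.1 to 12.6) per 100 kb. The ratio of these densities was 2.44 with GSK552 (2.16 to 2.74) and 2.59 with DMSO (2.28 to 2.95), with 95% intervals from the counts. The preference was of like size in the other sets and the intervals overlapped. It was 2.01 (1.35 to 2.97) with GSK552 and 2.10 (1.36 to 3.24) with DMSO in the intervals on broad H3K4me2, and 2.18 (2.02 to 2.36) and 2.45 (2.25 to 2.66) in intervals of 2000 bp to under 4000 bp.

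**Figure D2:**
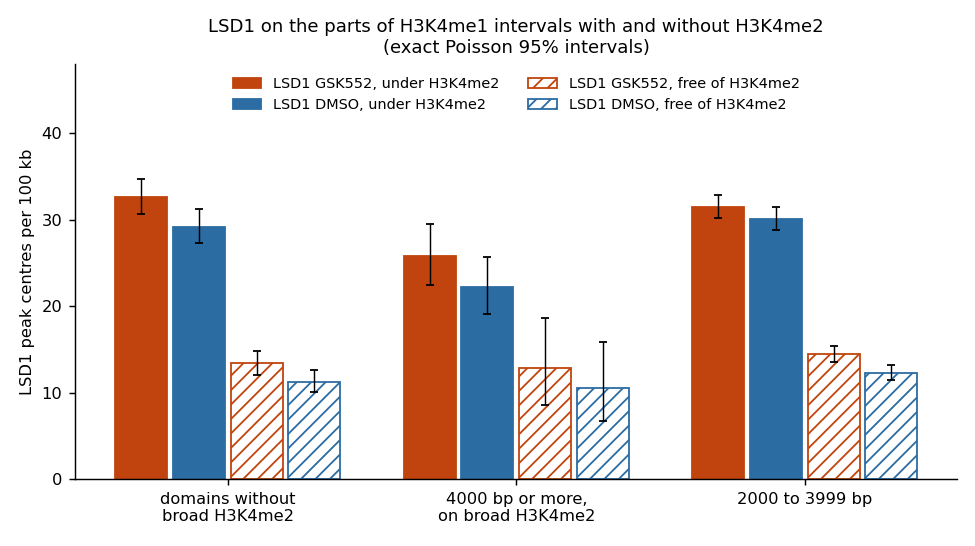
LSD1 peak centres per 100 kb (vertical axis, bars from 0 with exact Poisson 95% intervals) on the parts of H3K4me1 intervals under H3K4me2 (filled) and free of it (hatched), with GSK552 and DMSO, for the domains and 2 other sets of H3K4me1 intervals. In the domains the filled bars stand at 32.6 and 29.2 and the hatched bars at 13.4 and 11.3.

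Within the domains, LSD1 centres lay near H3K4me2 summits more often than domain bases did. Near H3K4me1 summits they lay about as often as domain bases. H3K4me2 summits lie only on the pieces, while H3K4me1 summits occur along the whole domain. These shares therefore cannot tell a preference for summits from the preference for pieces. With GSK552, 64.0% of 1385 LSD1 centres (61.4 to 66.5%) lay within 200 bp of an H3K4me2 summit, while 45.7% of domain bases did. With DMSO the share was 64.6% of 1219 centres (61.8 to 67.2%). Within 200 bp of an H3K4me1 summit lay 71.7% of centres with GSK552 (69.3 to 74.0%) and 69.9% with DMSO (67.3 to 72.4%), against 70.6% of domain bases. The median distance to an H3K4me1 summit was 121 bp with GSK552 and 120 bp with DMSO, and 119 bp for a base of the domains. The LSD1 files give no summits, so the middle of each LSD1 peak was used.

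Whether LSD1 was found on an H3K4me2 piece depended on its width. Of the H3K4me2 intervals at domains, 43.2% were overlapped by LSD1 with GSK552 and 40.3% with DMSO, close to the 40.8 and 35.4% of all H3K4me2 intervals. Among pieces of 2000 bp to under 4000 bp the shares were 85.2% (81.5 to 88.3%) and 82.8% (78.9 to 86.1%), and among those under 500 bp 23.8 and 22.3%. Compared with H3K4me2 intervals of the same width class at H3K4me1 under 2000 bp, pieces of 2000 bp to under 4000 bp at domains carried LSD1 more often by 10.3 points with GSK552 (Newcombe interval 6.29 to 13.7) and 16.3 points with DMSO (12.1 to 19.99). For pieces of 1000 to 1999 bp the excess was 11.0 points (7.31 to 14.4) and 11.4 points (7.49 to 15.1). Shorter pieces showed no excess. At 500 bp to under 1000 bp the difference was −3.32 points (−6.91 to 0.284) with GSK552 and −1.50 points (−5.07 to 2.11) with DMSO, and under 500 bp −1.88 points (−3.73 to 0.0493) and −4.05 points (−5.85 to −2.15). Against intervals at H3K4me1 of 2000 bp to under 4000 bp, the difference for pieces of 1000 to 1999 bp was −3.89 points with GSK552 (−7.94 to −0.00588) and −7.96 points with DMSO (−12.2 to −3.75). At 500 bp to under 1000 bp it was −7.45 points (−11.5 to −3.33) and −4.82 points (−8.92 to −0.691). For pieces of 2000 bp to under 4000 bp the difference was 2.23 points (−2.23 to 6.39) and 7.02 points (2.17 to 11.6). Over all widths it was −2.23 points (−4.06 to −0.404) and −1.86 points (−3.66 to −0.0453). The narrower H3K4me1 intervals also held H3K4me2 intervals of 4000 bp or more, which the rule keeps out of the domains. The values over all widths therefore cannot show that pieces at domains carried LSD1 less often.

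A difference in LSD1 between domains and the somewhat wider intervals on broad H3K4me2 was not resolved. The difference in share, domains minus the 157 intervals on broad H3K4me2, was −3.79 points with GSK552 (−8.20 to 2.26) and −5.08 points with DMSO (−10.2 to 1.51), and both intervals include 0. Within width classes it was 0.37 points with GSK552 (−8.64 to 12.95) and −1.33 points with DMSO (−11.2 to 11.7) at 4000 bp to under 5000 bp. At 5000 bp to under 7000 bp it was −4.43 points (−9.24 to 4.90) and −0.998 points (−8.18 to 10.2), and at 7000 bp or more −0.754 points (−6.70 to 10.4) and −7.13 points (−13.2 to 3.29). Against the 4766 H3K4me1 intervals of 2000 bp to under 4000 bp, domains carried LSD1 more often by 16.8 points with GSK552 (14.2 to 19.1) and 16.4 points with DMSO (13.6 to 19.0). Per length the order depended on the measure. Overlapping LSD1 peaks numbered 31.0 and 28.0 per 100 kb in the narrower set, against 26.3 and 23.1 in domains. Peaks that reach past the edges add to these counts. Counted by centres, the sets were close. With GSK552 the narrower set had 31.5 centres per 100 kb on H3K4me2 and 14.4 off it, against 32.6 and 13.4 in domains. With DMSO these were 30.1 and 12.3, against 29.2 and 11.3. LSD1 covered 17.2 and 17.4% of the bases of the narrower set, against 19.0 and 18.7% in domains.

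The GSK552 list held LSD1 in more domains than the DMSO list. The difference was 4.47 points, with a paired Newcombe interval of 2.13 to 6.84. In H3K4me1 intervals of 2000 bp to under 4000 bp it was 4.07 points (2.72 to 5.42). In the broad intervals on broad H3K4me2 it was 3.18 points (−2.24 to 8.80), so the difference was not particular to the domains. The GSK552 list is longer as deposited, with 49597 peaks against 45188. With the same number of highest-scoring peaks in both lists, 82.9% of domains had LSD1 with GSK552 and 81.5% with DMSO, a difference of 1.30 points whose interval (−1.09 to 3.70) includes 0. When each list was cut to the better-scoring 50% of its peaks, the difference was −1.21 points (−4.14 to 1.72). With a −log10 q of 2 or more, which keeps 37356 GSK552 and 21701 DMSO peaks, it was 15.6 points (12.7 to 18.4). The size and the sign of the difference thus depended on how the lists were cut. By number of peaks, 336 domains had more LSD1 peaks with GSK552 than with DMSO, 552 had the same number and 185 had fewer. No domain gained or lost more than 3 peaks. Such changes in number were not counted for other H3K4me1 intervals.

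**Figure D3:**
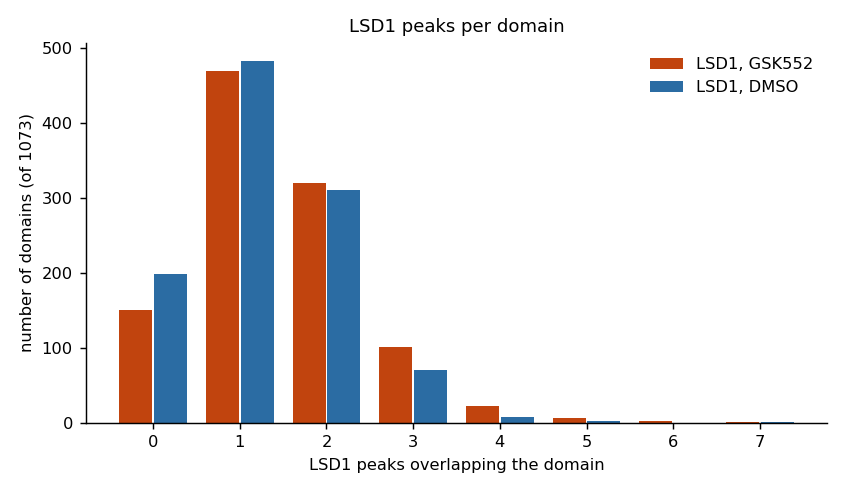
Number of domains (vertical axis, of 1073) by the number of LSD1 peaks that overlap them (horizontal axis), with GSK552 and with DMSO. Domains with 1 peak are the most common, at 470 and 483, and 150 and 198 domains have none.

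LSD1 sites of the domains were found again in the other library more often than all LSD1 sites elsewhere, and about as often as those of other wide H3K4me1 intervals. Of the 1538 GSK552 LSD1 peaks at domains, 71.8% (69.5 to 74.0%) were overlapped by a DMSO peak, against 58.1% of all GSK552 peaks. Of the 1350 DMSO peaks at domains, 79.4% (77.2 to 81.5%) were overlapped by a GSK552 peak, against 63.2% of all DMSO peaks. In H3K4me1 intervals of 2000 bp to under 4000 bp the shares were 73.9% of GSK552 peaks (72.5 to 75.3%) and 80.0% of DMSO peaks (78.6 to 81.3%). On broad H3K4me2 they were 70.2% (64.6 to 75.2%) and 79.3% (73.8 to 83.96%), and outside H3K4me1 49.97% (49.4 to 50.5%) and 55.2% (54.6 to 55.8%). Compared with all peaks outside the domains, of which most lie outside H3K4me1, the excess was 14.1 points for GSK552 peaks (11.8 to 16.4) and 16.8 points for DMSO peaks (14.5 to 18.9). Peaks at domains had median score percentiles of 56.2 for GSK552 and 63.7 for DMSO and median widths of 627 and 732 bp. Peaks in intervals of 2000 bp to under 4000 bp had percentiles of 58.4 and 63.7 and widths of 602 and 675 bp, and all peaks outside the domains had widths of 382 and 465 bp. When each list was split by score into 4 equal groups, the excess for DMSO peaks was 13.2 points (6.54 to 19.8) in the lowest group and 8.83 points (7.02 to 9.95) in the highest. For GSK552 peaks it was 4.81 points (−0.324 to 10.1) in the lowest group and 12.2 points (9.69 to 14.1) in the highest. The part of peak width in this was not tested.

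LSD1 differed among the domains with width, H3K4me2 cover and H3K4me1 strength, when the domains were split by each into 4 equal groups. In the narrowest group 80.7% had LSD1 with GSK552 and 76.2% with DMSO, and in the widest 94.4 and 91.4%. Per length these narrowest and widest groups were alike, at 26.1 and 26.6 peaks per 100 kb with GSK552 and 24.1 and 23.2 with DMSO. In the group with least H3K4me2 (median cover 29.5%) LSD1 covered 12.2% of bases with GSK552 and 12.6% with DMSO. In the group with most (73.3%) it covered 22.2 and 22.5%. In the group with the lowest H3K4me1 fold LSD1 covered 16.3% of bases with GSK552 and 15.9% with DMSO, and in the group with the highest 21.7 and 21.2%. Across the 1073 domains, Spearman's rho between H3K4me2 cover and LSD1 cover was 0.23 with either treatment, and between LSD1 cover with GSK552 and with DMSO it was 0.62. All lists share the same genome and its local copy number, so these values are a description.

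The local background of the H3K4me1 library moved with these shares. It was worked out for each interval from its fold together with its p-value and set relative to the list's median. Its median was 1.24 in the domains and 1.20 in intervals of 2000 bp to under 4000 bp. In the group of domains with the lowest implied background, 72.5% had LSD1 with GSK552 and 75.8% with DMSO, and in the group with the highest 94.8 and 86.2%. The difference between treatments was −3.35 points in the lowest group (−8.28 to 1.59) and 8.58 points in the highest (4.81 to 12.8). Of all H3K4me1 intervals, 0.507% were domains in the lowest of 4 equal groups by background and 1.72% in the highest. The part of background in the LSD1 shares and in the calling of domains was not tested.

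**Figure D4:**
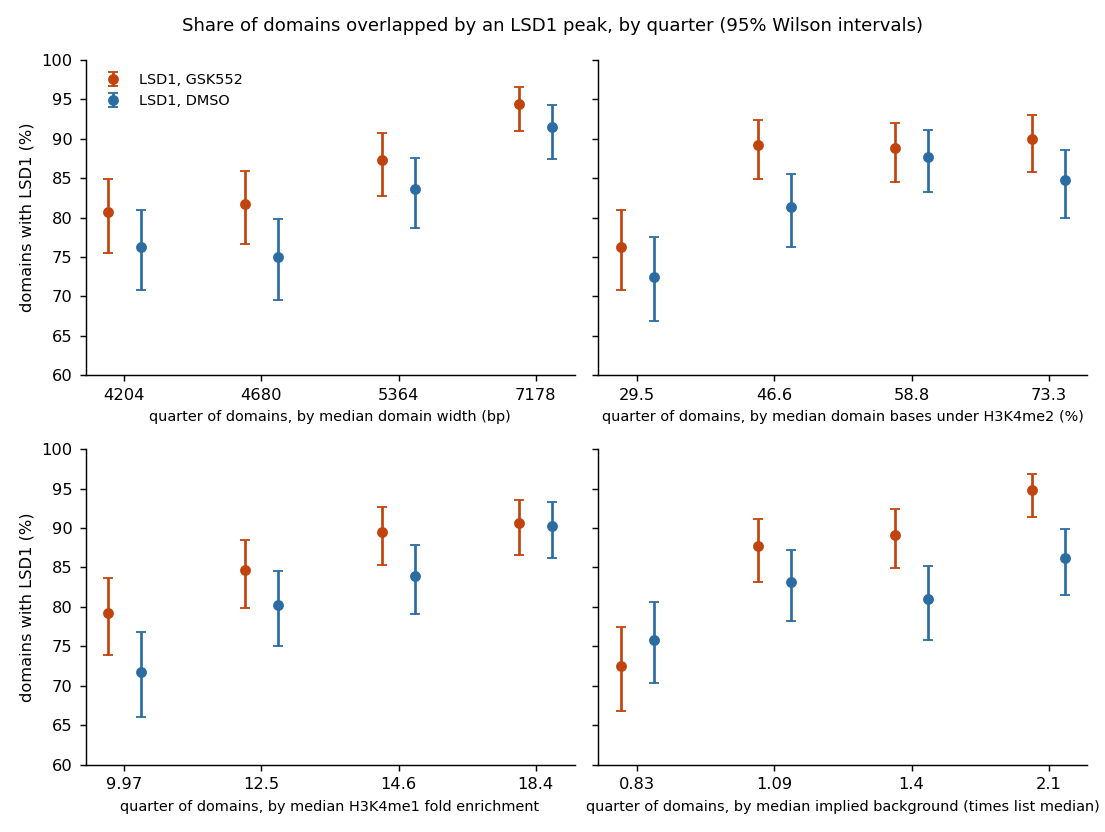
Percentage of domains overlapped by an LSD1 peak (vertical axis from 60 to 100%, 95% Wilson intervals) with GSK552 and DMSO, in 4 equal groups by domain width, H3K4me2 cover, H3K4me1 fold and implied background, each labelled with its median (horizontal axes). Among the groups by width the shares are highest in the widest domains, at 94.4 and 91.4%, and among the 4 splits they spread most with background for GSK552, between 72.5 and 94.8%.

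The domains were unevenly placed along the genome. Chromosome 11 held 144 domains, 24.4 per 1000 H3K4me1 intervals, and chromosome 17 held 89, or 21.0 per 1000. Chromosome 21 had 17.5 per 1000, chromosome 16 had 16.8 and chromosome 13 had 10.1. Chromosome 1 held 131 (14.6 per 1000), chromosome 19 held 14 (6.22 per 1000) and chromosome X held 3 (1.38 per 1000). The implied background of all H3K4me1 intervals had medians of 1.43 on chromosome 11, 1.30 on chromosome 17, 1.10 on chromosome 19 and 0.7 on chromosome X. On chromosomes 21, 16 and 13 they were 1.10, 0.9 and 1.40. The part of this background in the counts of domains was not tested. Of the domains on chromosome 11, 93.1% had LSD1 with either treatment. On chromosome 10 the shares were 68.4 and 71.1%, beside a median implied background of 0.740. Chromosome 9 had 68.3 and 61.0% beside 0.9, chromosome 16 had 69.8 and 74.4% beside 0.9, and chromosome 22 had 66.7 and 66.7% beside 0.820. Chromosome 6 had 100 and 94.6% beside 0.940, and chromosome 4 had 90.9 and 100% beside 0.935. These chromosomes are examples, and the part of background in their LSD1 shares was not tested.

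Domains also stood beside each other. When those separated by up to 12.5 kb were joined, 804 stood alone, 90 formed pairs, 16 formed groups of 3 and 7 groups of 4, and there was 1 group each of 6 and 7. Some neighbours nearly touched, as chr1:10728046-10732322 and chr1:10732384-10753478 did. Whether such neighbours were a single stretch split by the caller was not tested, and no expected number of groups was worked out. The largest group, at chr16:85592019-85674387, held 7 domains over 82.4 kb with 11 LSD1 overlaps with GSK552 and 13 with DMSO. Its LSD1 lay at one end. The first 4 domains held 2, 5, 2 and 2 peaks with GSK552 and 2, 4, 2 and 4 with DMSO, and the last 3 held 0, 0 and 0 with GSK552 and 0, 1 and 0 with DMSO. H3K4me2 covered 22.03 to 79.6% of the first 4 domains and 35.0 to 55.0% of the last 3. The second largest group, at chr16:72943551-72998398, held 6 domains, 4 LSD1 overlaps with GSK552 and 5 with DMSO.

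Groups of like size differed greatly in LSD1. At chr20:56014432-56061453, 4 domains held 15 LSD1 overlaps with GSK552 and 14 with DMSO, and LSD1 covered between 52.8 and 66.2% of each with GSK552 and between 43.6 and 78.7% with DMSO. At chr1:10728046-10768299, another 4 domains held 2 LSD1 overlaps with GSK552 and 3 with DMSO. Cover there was at most 5.52% with GSK552 and at most 18.3% with DMSO. The implied background was 1.76 to 2.34 in the first of these groups and 0.695 to 0.935 in the second. Its part in the contrast was not tested.

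The 2 widest domains show the same contrast. The widest, at chr1:10732384-10753478, was 21095 bp wide with a fold of 23.02, 59 summits and 20 H3K4me2 intervals over 70.1% of its length. It held a single LSD1 peak with GSK552, at chr1:10739760-10739947 (fold 4.07), and a single peak with DMSO, at chr1:10739548-10739948 (fold 4.25). These overlap each other and lie 7.38 and 7.16 kb from the start of the domain. The next widest, at chr20:56044564-56061453, was 16890 bp wide with a fold of 26.2 and 16 H3K4me2 intervals over 81.0% of its length. It held 7 LSD1 peaks with GSK552 over 54.2% of its length and 7 with DMSO over 43.6%. Each of the 7 in either library was overlapped by a peak of the other.

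**Figure D5:**
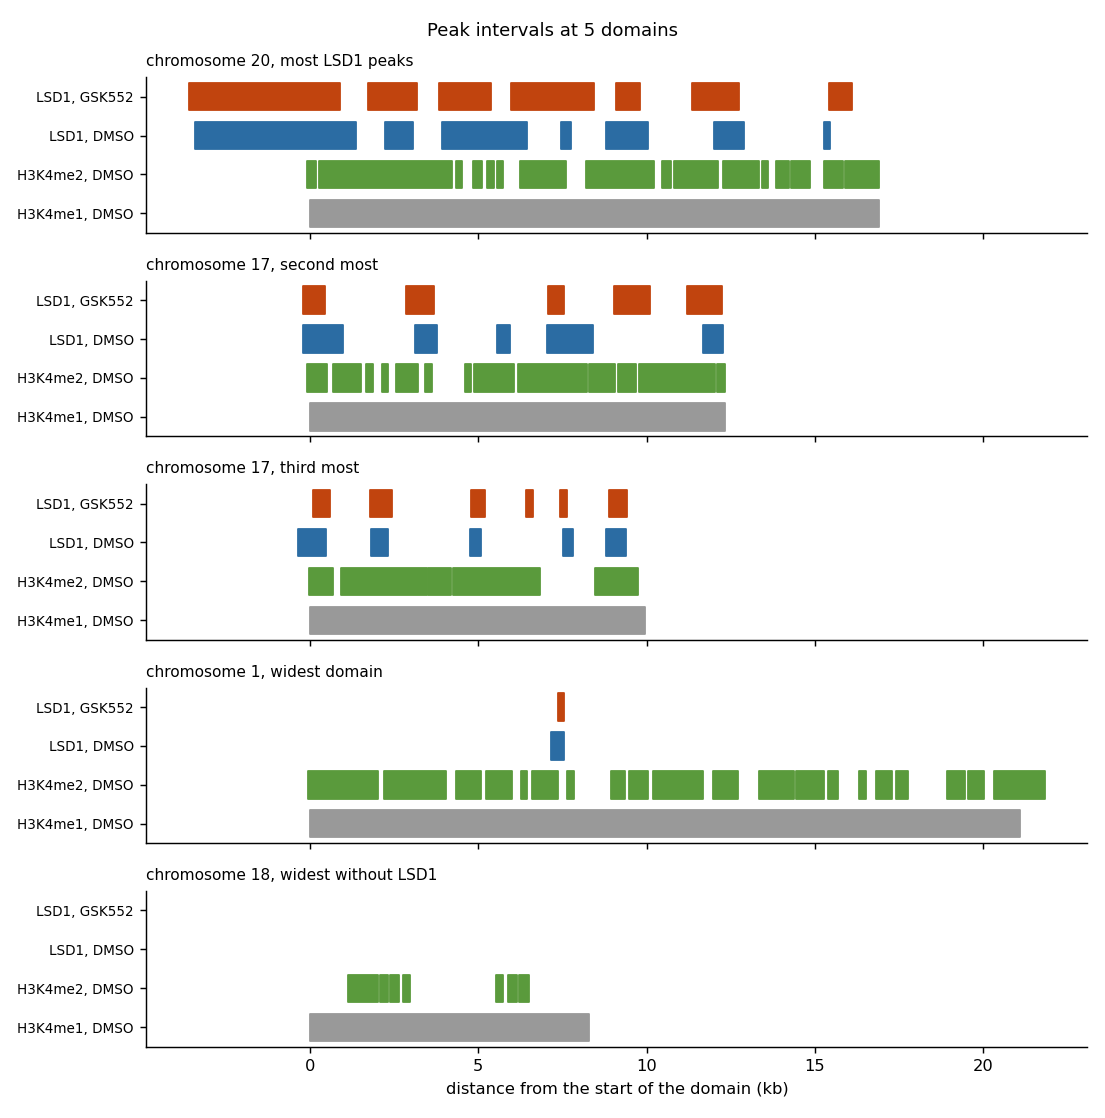
Peak intervals at 5 domains against distance from the start of the domain (horizontal axis, kb), with tracks from top to bottom for LSD1 with GSK552, LSD1 with DMSO, H3K4me2 and H3K4me1. The domain on chromosome 20 holds 7 LSD1 peaks in either library, the widest domain on chromosome 1 holds 1, and the domain on chromosome 18 holds none beside 7 pieces of H3K4me2.

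Chromosome 17 held 4 of the 10 widest domains. At chr17:55675524-55687863 (12340 bp, fold 27.9, H3K4me2 over 79.7%) there were 5 LSD1 peaks with GSK552 and 5 with DMSO. Of these, 4 in each library matched across libraries. At chr17:70129484-70142964 (13481 bp) there were 5 LSD1 peaks with GSK552 and 4 with DMSO. A further domain of the same chromosome, chr17:70459512-70469472, is 9961 bp wide and is not among the 10 widest. It held 6 LSD1 peaks with GSK552 and 5 with DMSO. The remaining pair of the 10 widest on chromosome 17, at chr17:57440642-57454316 and chr17:74126375-74139581, held 4 and 3 peaks with GSK552 and 3 and 3 with DMSO. Every one of the 10 widest domains had LSD1 in both libraries, with 1 to 7 peaks in each.

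The highest H3K4me1 fold among the domains, 28.2, was at chr1:54837442-54846372 (8931 bp). It held 1 LSD1 peak in each library, with folds of 4.71 with GSK552 and 6.24 with DMSO. The domains with the next highest folds and not yet described were chr18:47685479-47691417 (fold 27.7, 5939 bp) and chr22:37793863-37801132 (fold 26.8, 7270 bp). They held 2 and 2 LSD1 peaks with GSK552 and 2 and 1 with DMSO. On chromosome 22 LSD1 covered 28.5% of the domain with GSK552 and 45.7% with DMSO.

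Some wide domains carried LSD1 in neither library. The widest of the 91 was chr18:77699953-77708231 (8279 bp, fold 18.1), with 7 H3K4me2 intervals over 28.6% of its length. It was followed by chr7:129408614-129416382 (7769 bp, H3K4me2 over 12.1%) and chr14:56587499-56594520 (7022 bp, H3K4me2 over 76.8%). The median domain without LSD1 was 4607 bp wide with a fold of 12.2 and H3K4me2 over 42.3% of its length. Where LSD1 was in both libraries the medians were 5125 bp, 13.8 and 54.6%. A library of unknown depth can miss weak peaks, so these domains are not shown to lack LSD1.

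A few domains differed between the LSD1 libraries, each without a replicate. These were chosen after their values were seen. At chr5:139261107-139268845 (7739 bp) there were 3 LSD1 peaks with GSK552, the strongest with a fold of 8.06 and rank 235 in its list, and 0 with DMSO. At chr11:115287837-115296921 (9085 bp) there were 6 with GSK552 and 3 with DMSO. In the other direction, chr1:204540864-204548890 (8027 bp) held 1 peak with GSK552 and 4 with DMSO. That GSK552 peak ranked 361 with a fold of 8.51 and reached 37 bp into the domain, where the DMSO peaks covered 2618 bp. At chr16:85613140-85624331 LSD1 covered 471 bp with GSK552 and 4020 bp with DMSO.

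Stretches with raised background, defined as runs of at least 10 peaks of the 4 lists at more than 6 times the list median, held 9 domains. Of these, 7 were on chromosome 2 and 2 on chromosome 6. Their H3K4me1 folds had a median of 5.98, against 13.6 in the other 1064 domains, beside a median implied background of 26.6 against 1.23. All 9 carried LSD1 in both libraries, with covers from 24.99 to 100% with GSK552 and from 21.4 to 100% with DMSO. Without them 85.9% of domains had LSD1 with GSK552 and 81.4% with DMSO.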

How the data were processed

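ChIP-seq peak lists of 4 libraries were used, 1 library per group. BWA, Picard and MACS2 2.0 are named with build hg19 per the submitters' processing notes. Which control library was used, how duplicate reads were treated and how deep each library was sequenced is not stated in the sources at hand, so the depth is unknown. The files have no header, and their columns were read from the layout of the caller. The deposited score is 10 times −log10 q as a whole number, which held within 1 unit in 99.99% of GSK552 LSD1 rows and more in the other lists. Fold enrichment was deposited as a ratio to the background of the caller. The −log10 p and −log10 q of a peak are likewise the authors' deposited values. The smallest −log10 q was 1.01 for LSD1 with GSK552, 1.00 for LSD1 with DMSO, 2.02 for H3K4me2 and 2.01 for H3K4me1, so the LSD1 lists reach to weaker peaks. LSD1 lists have the broad layout and histone lists the narrow layout, which differ in how intervals are joined.

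The 175135 H3K4me1 rows gave 94689 distinct intervals and the 178083 H3K4me2 rows 81619, each with the highest fold and q over its rows. Overlap meant at least 1 shared bp. Shares carry 95% Wilson intervals, differences Newcombe intervals (paired for the same domains) and densities exact Poisson intervals. All cover counting error only, and neighbouring domains are not independent. Implied background is the background at which a peak's fold, with a pseudocount of 1, has its Poisson p-value, relative to the list median. Domains named are the 10 widest, the 10 with most DMSO LSD1 peaks, the 5 with the highest fold, the 5 widest without LSD1, the 3 widest without H3K4me2 and 3 on each side of the threshold; the leading ones are described. Groups of neighbouring domains, raised stretches and domains that differ between libraries were picked once their values had been seen. The members and lists were chosen with earlier results of these data known. Gene lists that had been planned are not analysed here, for want of an hg19 annotation. Overlaps were tested on simulated data, in which domains planted with a peak in 50% of cases were recovered at 50%. Python 3.11.15, numpy 2.4.6, pandas 2.3.3 and scipy 1.17.1 were used.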

Additional observations from a re-analysis of the deposited data

How the results depend on the processing

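Of the alternatives, joining H3K4me2 intervals over 200 bp was added after the data were seen and the others were planned. No paired analysis was possible because no group held more than 1 library and no result came from a test. The paired intervals pair the same domains in both lists, not samples. Base covers were not recomputed by centres, which have no length. Since cover counts single bases, its interval is narrow and small shifts leave it. Except where lists or sets are said to be shortened, the cause was not tested. Of the values recomputed, 56 stayed within their intervals, 41 left them and 1 changed sign. Unknown depth limits every comparison of the LSD1 lists.

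With each list cut to its better-scoring 50%, LSD1 lay in 61.0% of domains with GSK552 and 62.3% with DMSO, so the difference turned to −1.21 points; 71.4% of DMSO peaks were found with GSK552, peaks per 100 kb were 14.5 and 14.6 and covers 12.4 and 13.6%. Shortened lists hold fewer peaks by construction. With LSD1 lists of equal length, 82.9% of domains had LSD1 with GSK552, the difference was 1.30 points, 76.4% of DMSO peaks were found again, and GSK552 had 24.2 peaks per 100 kb and a cover of 18.2%. With a −log10 q of 2 or more, which keeps 37356 GSK552 and 21701 DMSO peaks, the shares were 76.5 and 61.0%, the difference 15.6 points, retention 85.6%, peaks per 100 kb 20.4 and 14.2 and covers 16.3 and 13.2%. With LSD1 centres inside the interval, the shares were 81.5 and 77.5%, peaks per 100 kb 23.5 and 20.7, and the DMSO excess over intervals of 2000 bp to under 4000 bp 25.3 points.

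With broad defined from 3000 bp (2084 domains), the shares were 82.3 and 77.1% and covers 18.2 and 18.1%. From 5000 bp (569 domains), they were 91.7 and 88.4%, the covers 20.002 and 19.5%, and the DMSO excess over narrower intervals 22.04 points. The covers were 19.1 and 18.8% on chromosomes 1 to 22, 18.7 and 18.3% without the raised stretches, 18.4 and 18.4% after joining H3K4me2, and 18.8% with DMSO at 1000 bp or more from broad H3K4me2. The differences between sets were recomputed for DMSO LSD1 and not for GSK552 LSD1. With DMSO the excess over intervals of 2000 bp to under 4000 bp kept its direction in all 10 alternatives. The DMSO difference from intervals on broad H3K4me2 stayed negative in these 10, and its interval left out 0 in 1 of them, with 3000 bp, at −4.51 points (−8.32 to −0.263).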
